A study of Homo sapiens with 10 samples.

Results

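The intestinal lineage transcription factors considered here are 9 genes, the caudal homeobox factors CDX1 and CDX2, the nuclear receptors HNF4A and HNF4G, the zinc finger factors KLF4, KLF5 and GATA6, the ETS factor ELF3 and the forkhead factor FOXA2. They were taken by name, with all probe sets that the platform annotation pairs with exactly 1 of these symbols, and the probe set with the highest mean log2 signal stood for its gene. Of the 9 genes, 8 had such a probe set, 17 probe sets in all out of 41091 with 1 symbol. HNF4A is not listed in the annotation table and was not analysed here. All 8 measured genes passed the filter on low signal, a mean signal of at least 76.2 over the arrays, among 12344 of 19775 genes. LoVo is an established line of human colorectal adenocarcinoma cells, and ADMA, short for asymmetric dimethylarginine, is an endogenous inhibitor of nitric oxide synthases. The 3 groups were control cells in DMEM with 10% fetal bovine serum (C, 3 arrays), cells starved of serum in DMEM with 0% serum (SS, 3 arrays) and cells in the same serum-free medium with 10 μM ADMA (ADMA, 4 arrays), each kept for 96 h. All cells were of this 1 line. The labels call the samples of a group biological replicates without saying how the cultures were kept apart. The p-values therefore set differences between groups against the spread between these samples, not between cultures known to be independent.

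These factors act in layers in the gut. FOXA2 and GATA6 open chromatin and specify endoderm, CDX2 sets intestinal identity over that of the foregut and CDX1 shares much of its binding preference, and the HNF4 receptors drive genes of absorptive cells. KLF5 is known from dividing crypt cells and KLF4 from differentiated cells that have left the cycle, while ELF3 is an epithelial ETS factor of enterocyte and goblet cell maturation.

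The signals are MAS 5.0 intensities, 1 value per probe set and array, given below as deposited or on the log2 scale, where a difference of 1 is a doubling. A gene is said to have risen or fallen where limma, fitted over all 10 arrays and all genes that passed the filter, gave a p under 0.01 after Benjamini-Hochberg adjustment together with a change of 1.2-fold or more (0.26 on the log2 scale). Median signals of the arrays lay at 60.6 to 73.1 in C, 87.4 to 90.6 in SS and 91.8 to 98.1 in ADMA. Centring each array on its median therefore lowered every log2 difference of SS minus C by 0.39. It lowered those of ADMA minus SS by 0.12 and of ADMA minus C by 0.51. These medians lie around the filter limit of 76.2 and so follow dim probe sets. Over the genes tested, the median log2 differences in this order were 0.07, 0.03 and 0.07 as deposited and -0.32, -0.09 and -0.44 after centring. With the filter at the 75th percentile of signal they were -0.02, 0.02 and -0.02 without centring. Which scaling is closer to the RNA amounts was not tested. The probe sets for the large ribosomal RNA had mean signals of 345 to 429, 1068 to 1653 and 671 to 935 in the 3 groups, and ACTB had a ratio of its 3' over its 5' probe set of 1.01 to 1.08, 1.13 to 1.23 and 1.02 to 1.05. The part of these values in the results below was not tested. All 10 markers of colon epithelium, among them EPCAM and KRT8, were above the background level on all 10 arrays, and their summed signal was 92008 to 92571 in C, 130845 to 149566 in SS and 161928 to 184253 in ADMA. None of 8 hepatocyte markers passed the filter, while 6 of 8 stomach, 2 of 7 squamous, 4 of 8 fibroblast, 2 of 6 leukocyte and 1 of 5 endothelial markers did. Of the 7 squamous markers 6 had a probe set, and of the 6 leukocyte markers 4. The leukocyte markers PTPRC and CD14 and the fibroblast marker PDGFRB were above the background level on no array, and LYZ, with signals of 379 to 602 in C, 3845 to 4534 in SS and 1244 to 1923 in ADMA, carried most of the leukocyte sum of 492 to 703, 3974 to 4638 and 1364 to 2032. The stomach sum was 2008 to 2499, 9638 to 9854 and 4858 to 5978 in the 3 groups, the squamous sum 633 to 658, 3032 to 3055 and 2501 to 3126, and the fibroblast sum 1402 to 1505, 2162 to 2341 and 2506 to 2884. DSG3, a desmosomal cadherin of squamous epithelium, rose by 3.42 (standard error 0.10) in SS. VIM, the filament protein of mesenchymal cells, rose by 1.30 (standard error 0.09), and TFF1, a trefoil peptide of stomach pits, by 2.70 (standard error 0.09). In SS these genes carried most of the squamous, fibroblast and stomach sums. Of the fibroblast markers tested 2 rose in SS, while COL1A1 (-0.13, standard error 0.14) and DCN (0.50, standard error 0.40) were not called. Of the stomach markers tested 4 rose, while PGC (-0.26, standard error 0.34) and CLDN18 (0.58, standard error 0.26) were not called. Over all genes tested 30.3% rose in SS. Among those 4, ANXA10 had a mean log2 signal of 5.95 in C, under the filter limit of 6.25, and passed through its higher levels without serum. MUC5AC rose by 0.96 but was not called with quantile normalization (0.58) or after centring (0.57). The part of these markers in the results below was not tested. In such bulk RNA, fewer cells that express a gene and less RNA of it per cell cannot be told apart.

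In serum-starved cells CDX1, CDX2, HNF4G, GATA6 and FOXA2 fell and ELF3 and KLF4 rose. Of the 8 measured factors 5 thus fell and 2 rose, where 27.3% and 30.3% of all genes tested did so, 57.6% in all. The SS and C arrays did not overlap for 7 of the 8, beside 71.2% of all genes. Their median log2 difference was -0.66 beside 0.07 over all genes. With ADMA against serum starvation, 5 factors rose and 1 fell, beside 15.7% and 13.8% of all genes and 29.5% in all, with a median of 0.29 beside 0.03. Again 7 of the 8 did not overlap, beside 46.1% of all genes. With ADMA against control, 2 rose and 3 fell, beside 26.6% and 23.2% and 49.8% in all, with a median of -0.30 beside 0.07, and 5 of the 8 did not overlap, beside 61.9% of all genes. After centring on array medians the counts became 1 risen and 6 fallen, 2 risen and 1 fallen, and 1 risen and 6 fallen in these comparisons. With the same centring, of all 12344 genes 2013 rose and 5184 fell in SS minus C. In ADMA minus SS 901 rose and 2093 fell, and in ADMA minus C 1209 rose and 6101 fell. The comparisons share arrays, so that each is given with its own values.

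**Figure D1:**
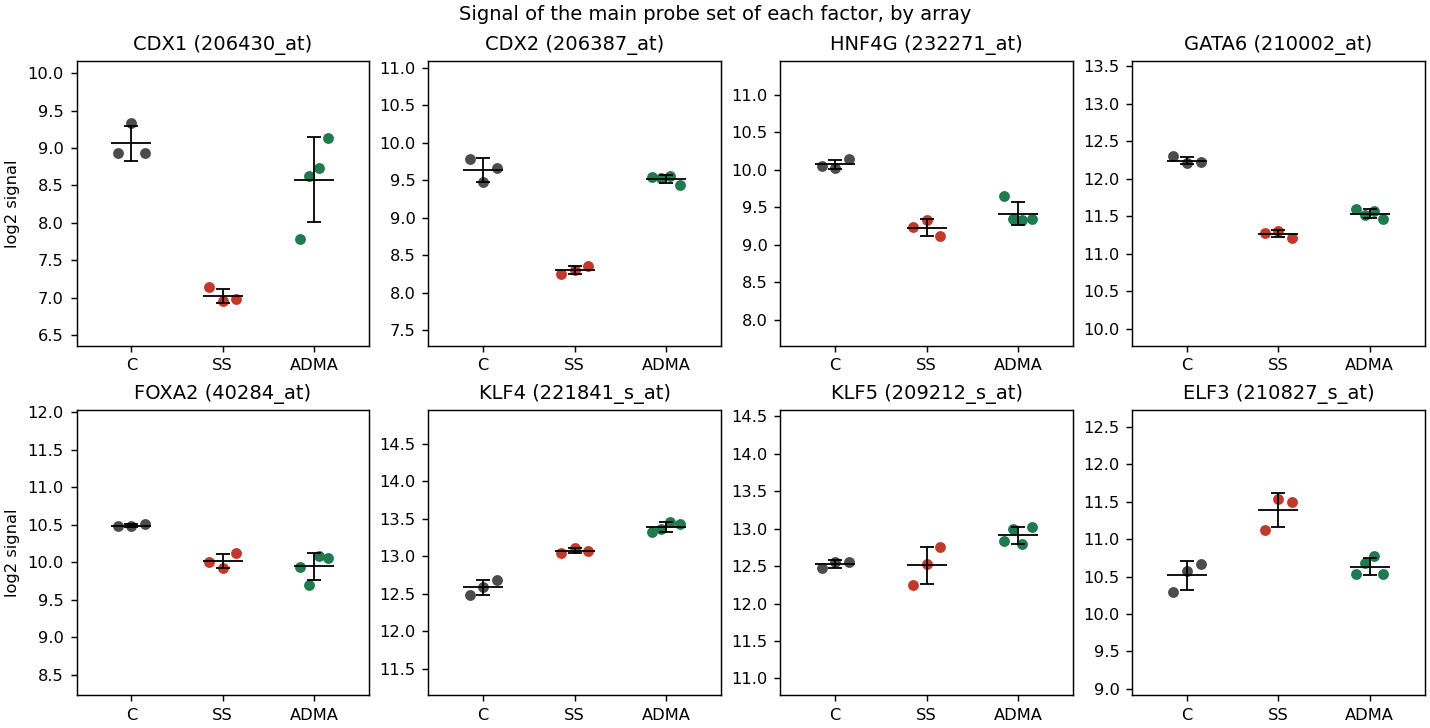
Log2 signal (vertical axis) of the main probe set of each of the 8 measured factors in control (C), serum-starved (SS) and ADMA-treated (ADMA) cells; each point is 1 array, the long bar is the group mean and the error bar the SD, and every panel spans the same number of log2 units. The 3 SS arrays lie below the 3 C arrays for CDX1, CDX2, HNF4G, GATA6 and FOXA2, and above them for KLF4 and ELF3.

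CDX2, the homeobox factor that keeps intestinal cells from taking on a stomach identity, fell in serum-starved cells and was back near its control level with ADMA. Its signals were 876, 711 and 807 on the C arrays, 304, 315 and 328 on the SS arrays and 747, 741, 752 and 688 on the ADMA arrays. The SS arrays were all below the rest, and the ADMA arrays lay within or just under the range of C. The mean log2 signals were 9.63 ± 0.15 (SD, n = 3), 8.30 ± 0.05 (SD, n = 3) and 9.51 ± 0.06 (SD, n = 4). CDX2 fell by 1.33 on the log2 scale in SS, a level 2.52-fold lower (standard error 0.10, adjusted p = 1.95e-08 in limma). With ADMA it rose from SS by 1.21, a level 2.32-fold higher (standard error 0.09, adjusted p = 2.35e-07). The difference of ADMA from C was -0.12 with a 95% interval of -0.32 to 0.08 (adjusted p = 0.278), and -0.63 with arrays centred on their medians, where it passed the test (adjusted p = 4.13e-05). The other CDX2 probe set had log2 differences of -1.14 (standard error 0.20) in SS minus C and 1.17 (standard error 0.19) in ADMA minus SS, and both passed the test over all probe sets.

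Promoter sequence was at hand for 5 of the 8 measured factors, CDX2, ELF3, GATA6, KLF4 and KLF5. Those of CDX2 and ELF3 are shown because these genes moved in opposite directions in both comparisons with serum-starved cells. Each is the 250 bases before the RefSeq gene start in GRCh38.p14, written 5′ to 3′ on the strand of the gene, at chr13:27969316-27969565 (minus strand) for CDX2 and chr1:202010337-202010586 (plus strand) for ELF3. Capitals mark matches on either strand to the core of CDX sites (TTTAT), of GATA sites (GATAA) and of forkhead sites (TNTTTAC).
CDX2: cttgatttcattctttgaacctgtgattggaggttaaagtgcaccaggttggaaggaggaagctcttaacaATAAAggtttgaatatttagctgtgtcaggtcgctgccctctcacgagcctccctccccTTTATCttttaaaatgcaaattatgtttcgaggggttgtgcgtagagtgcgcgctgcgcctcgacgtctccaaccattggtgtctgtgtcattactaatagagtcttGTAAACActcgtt
ELF3: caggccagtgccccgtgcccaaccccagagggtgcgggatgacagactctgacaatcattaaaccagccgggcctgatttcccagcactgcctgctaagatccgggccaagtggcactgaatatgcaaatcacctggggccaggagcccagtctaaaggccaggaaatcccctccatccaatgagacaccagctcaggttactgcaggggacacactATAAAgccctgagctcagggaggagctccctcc

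The CDX2 window held 2 CDX matches, 1 GATA match and 1 forkhead match, and the GATA match at bases -119 to -115 overlaps the CDX match at -120 to -116. The ELF3 window held 1 CDX match, ATAAA at -33 to -29, whose letters are also those of a TATA box. Among 35116 promoter windows of this length 32.7% held a CDX match, 20.4% a GATA match and 9.58% a forkhead match. Cores of ETS sites (GGAAG) and KLF sites (CACCC) were searched too and are not marked. The CDX2 window held 2 ETS matches, at -200 to -196 and -193 to -189, and the ELF3 window 1 KLF match, at -221 to -217. Of all windows 65.1% held an ETS match and 54.7% a KLF match. A match to these letters is a description of the window and says nothing of whether a factor sits there.

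CDX1, the other caudal factor, showed the largest fall of the measured factors in serum-starved cells. Its signals were 488, 642 and 489 in C and 141, 125 and 126 in SS. With ADMA they were 222, 397, 428 and 566, above each SS array but spread from well under C into its range. CDX1 fell by 2.04 on the log2 scale in SS, a level 4.10-fold lower (standard error 0.25, adjusted p = 4.69e-06). With ADMA it rose from SS by 1.55, a level 2.93-fold higher (standard error 0.24, adjusted p = 0.000122). Its SD within the ADMA group was 0.57 on the log2 scale, the widest of the main probe sets, against 0.10 in SS. The difference of ADMA from C was -0.49 (standard error 0.24, adjusted p = 0.0909), and -0.99 after centring on array medians, which passed the test (adjusted p = 0.000537). Without ADMA replicate 1, the lowest of its group, it was -0.22 (adjusted p = 0.261).

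A factor common to all probe sets of an array cancels in the log2 ratio of 2 genes on it, so CDX1 was also set against CDX2 within arrays. The CDX1 over CDX2 ratio was lower in SS than in C by a log2 difference of -0.70 (standard error 0.23). Relative to the mean of the control arrays the ratio was -0.27, 0.42 and -0.15 in C and -0.54, -0.77 and -0.81 in SS, so that the groups did not overlap. The two-sided exact permutation test gave p = 0.1, the smallest that 3 arrays against 3 allow, and 0.2 after adjustment over the 6 ratio differences tested. The ADMA arrays lay at -1.18, -0.33, -0.24 and 0.29, across both other groups (exact p = 0.429 against SS and 0.343 against C).

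HNF4G, a nuclear receptor that binds with HNF4A at genes of enterocytes, fell in serum-starved cells and stayed below control with ADMA. Its main probe set gave signals of 1062, 1046 and 1125 in C, 604, 642 and 551 in SS and 803, 648, 646 and 647 in ADMA. All 7 arrays without serum lay below the 3 control arrays, and ADMA lay above SS without overlap, with 1 array apart from the other 3. HNF4G fell by 0.85 on the log2 scale in SS (1.80-fold lower, standard error 0.10, adjusted p = 3.36e-06). In ADMA it was 1.58-fold lower than in C, at -0.66 (standard error 0.10, adjusted p = 3.02e-05). The difference of ADMA from SS was 0.19, with a 95% interval of -0.01 to 0.40, and did not pass the test. Its other probe set also fell in SS, at -0.82 (standard error 0.19), but its difference of ADMA from C, -0.39 (standard error 0.18), did not pass the test over all probe sets.

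GATA6, a zinc finger factor of endoderm, fell by 0.98 on the log2 scale in serum-starved cells, a level 1.97-fold lower (standard error 0.06, adjusted p = 2.09e-09). Signals were 5030, 4745 and 4759 in C, 2482, 2523 and 2372 in SS and 3087, 2932, 3045 and 2811 in ADMA. The 3 groups did not overlap, with ADMA between the others and nearer to SS. Against control, GATA6 was 1.63-fold lower with ADMA (log2 difference -0.71, standard error 0.06). Its rise with ADMA over SS, 0.27 (standard error 0.06, adjusted p = 0.00122), lay at the 1.2-fold limit of the call. The call was lost with arrays centred on their medians (0.16, adjusted p = 0.206) and, by the fold alone, without SS replicate 3 (0.25), ADMA replicate 1 (0.25) or ADMA replicate 3 (0.26). The other GATA6 probe set was dim, with signals of 43.9 to 131 over the 10 arrays, 3 of them under the background level, and passed no test. With the mean of both probe sets in place of the brighter, GATA6 passed in no comparison (-0.32 in SS minus C).

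FOXA2, a forkhead factor that opens chromatin in early endoderm, had signals of 1432, 1432 and 1459 in C, 1030, 976 and 1112 in SS and 982, 834, 1091 and 1069 in ADMA. The serum-free groups overlapped each other and lay below C. FOXA2 fell by 0.47 in SS (1.39-fold lower, standard error 0.10, adjusted p = 0.000562) and by 0.54 in ADMA against C (1.46-fold lower, standard error 0.09, adjusted p = 0.000113). The difference of ADMA from SS was -0.07, with a 95% interval of -0.27 to 0.13, and 0.01 without ADMA replicate 2. The FOXA2 probe set next in brightness gave -0.41 (standard error 0.12) for SS minus C and -0.30 (standard error 0.11) for ADMA minus C, neither past the test (adjusted p = 0.0128 and 0.0503). The remaining probe set lay under the background level on 9 of 10 arrays. With the mean of all its probe sets FOXA2 passed in no comparison (-0.21 in SS minus C).

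KLF4, a zinc finger factor of differentiated epithelium, was the 1 measured factor that rose in both steps. Its main probe set gave signals of 5743, 6151 and 6629 in C, 8419, 8824 and 8605 in SS and 10206, 10490, 11234 and 11007 in ADMA. The groups did not overlap. KLF4 rose by 0.48 in SS (1.40-fold, standard error 0.06, adjusted p = 6e-06) and by a further 0.32 with ADMA (1.25-fold, standard error 0.06, adjusted p = 0.000499), which made it 1.74-fold higher with ADMA than in C (log2 difference 0.80, adjusted p = 2.46e-08). The other probe set had a rise of 0.63 in SS (standard error 0.07), of 0.58 from SS to ADMA and of 1.21 from C to ADMA (standard error 0.06 for both). Both steps of the main probe set depended on the scaling of the arrays. With arrays centred on their medians they were 0.09 (adjusted p = 0.423) and 0.20 (adjusted p = 0.0985). The difference of ADMA from C was then 0.29 and still passed in limma (adjusted p = 0.0077). With quantile normalization the first step was 0.67 (adjusted p = 1.51e-07 in limma) and the second 0.21, under the 1.2-fold limit.

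KLF5, the KLF factor of dividing crypt cells, gave opposite answers from its 2 probe sets. The main one had signals of 5684, 6020 and 5988 in C, 4866, 5906 and 6871 in SS and 7343, 8171, 7095 and 8315 in ADMA. By this probe set all ADMA arrays were above all others, and KLF5 rose by 0.41 over SS (standard error 0.09, adjusted p = 0.00293) and by 0.39 over C (standard error 0.09, adjusted p = 0.0023), although after centring on array medians these were 0.29 (adjusted p = 0.0387) and -0.12 (adjusted p = 0.339). Neither passed in limma without the intensity trend (adjusted p = 0.0178 and 0.0138). The other probe set had 6382, 5294 and 5932 in C, 6703, 7187 and 5380 in SS and 5410, 5501, 4380 and 4294 in ADMA. Its differences were -0.39 (standard error 0.11, adjusted p = 0.0277) from SS and -0.27 (standard error 0.11, adjusted p = 0.0867) from C, neither past the test. No direction for KLF5 with ADMA holds for both probe sets. In SS minus C neither passed, at -0.02 (95% interval -0.23 to 0.20) and 0.12 (standard error 0.12), and the first was 0.13 with quantile normalization, 0.11 without SS replicate 1 and -0.41 after centring, where it passed as a fall (adjusted p = 0.00325). The rise over SS was also lost without SS replicate 1 (0.28, adjusted p = 0.016), SS replicate 2 (0.42, adjusted p = 0.0101) or ADMA replicate 4 (0.37, adjusted p = 0.0107), and that over C without C replicate 1 (0.36, adjusted p = 0.0122).

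The within-array ratio of KLF4 over KLF5 was higher than in C by 0.50 in SS (standard error 0.14, exact permutation p = 0.1, the smallest possible) and by 0.41 in ADMA (standard error 0.08, exact permutation p = 0.0286, also the smallest possible). Neither passed after adjustment over the 6 differences (adjusted p = 0.2 and 0.171). Between ADMA and SS the ratio differed by -0.09 with the main KLF5 probe set and by 0.71 with the other. Between ADMA and C it differed by 1.07 with the other KLF5 probe set and by 0.94 with the probe sets of each gene averaged (adjusted p = 0.0857 for both in the exact permutation test).

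ELF3, the ETS factor of maturing epithelium, went the opposite way to the CDX factors. Its main probe set had signals of 1264, 1528 and 1628 in C, 2221, 2969 and 2902 in SS and 1486, 1645, 1744 and 1485 in ADMA. The SS arrays were all above the other 7, and ADMA overlapped C. ELF3 rose by 0.87 in SS, a level 1.83-fold higher (standard error 0.12, adjusted p = 1.03e-05). With ADMA it fell from SS by 0.75, a level 1.69-fold lower (standard error 0.11, adjusted p = 7.67e-05). The difference of ADMA from C was 0.11, with a 95% interval of -0.12 to 0.35, and -0.39 after centring, where it passed the test (adjusted p = 0.00986). The dimmest of its 3 probe sets had a rise of 0.49 (standard error 0.09) and a fall with ADMA at -0.73 (standard error 0.08), both past the test. The remaining ELF3 probe set varied within groups, with signals of 781 to 1230 in C and 792 to 1346 in ADMA, and its differences of 0.40 (standard error 0.21) and -0.27 (standard error 0.19) did not pass.

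**Figure D2:**
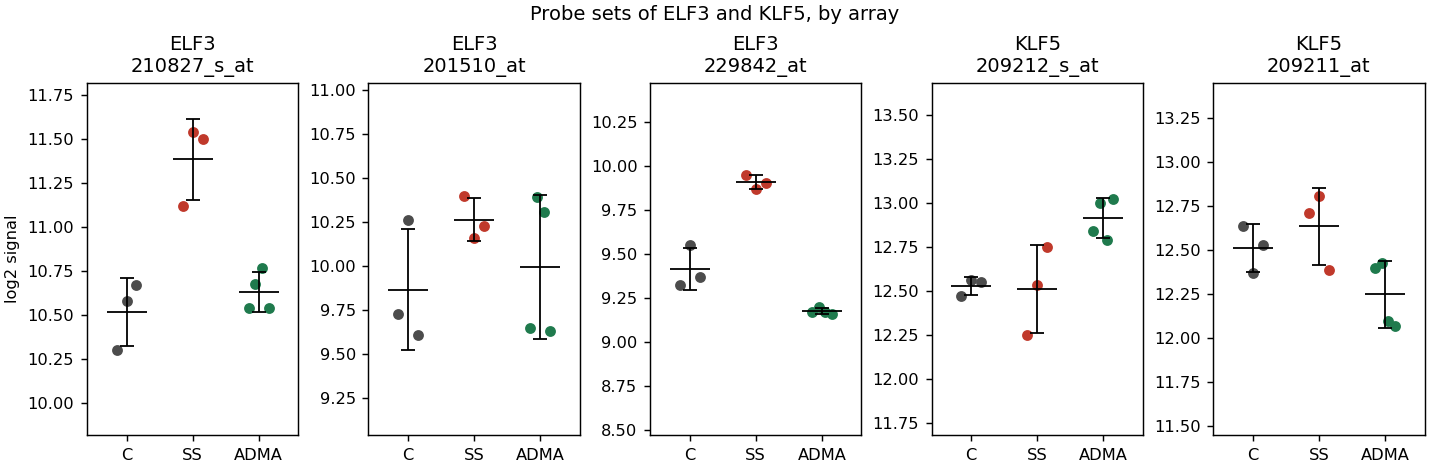
Log2 signal (vertical axis) on each array for the 3 probe sets of ELF3 and the 2 of KLF5 in control (C), serum-starved (SS) and ADMA-treated (ADMA) cells; the leftmost panel of each gene is its main probe set, points are arrays, long bars group means and error bars SD. The main and the dimmest ELF3 probe set are highest in SS, while with ADMA the main KLF5 probe set rises to a mean of 12.91 from 12.51 in SS and the other lies at 12.25 against 12.64.

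**Figure D3:**
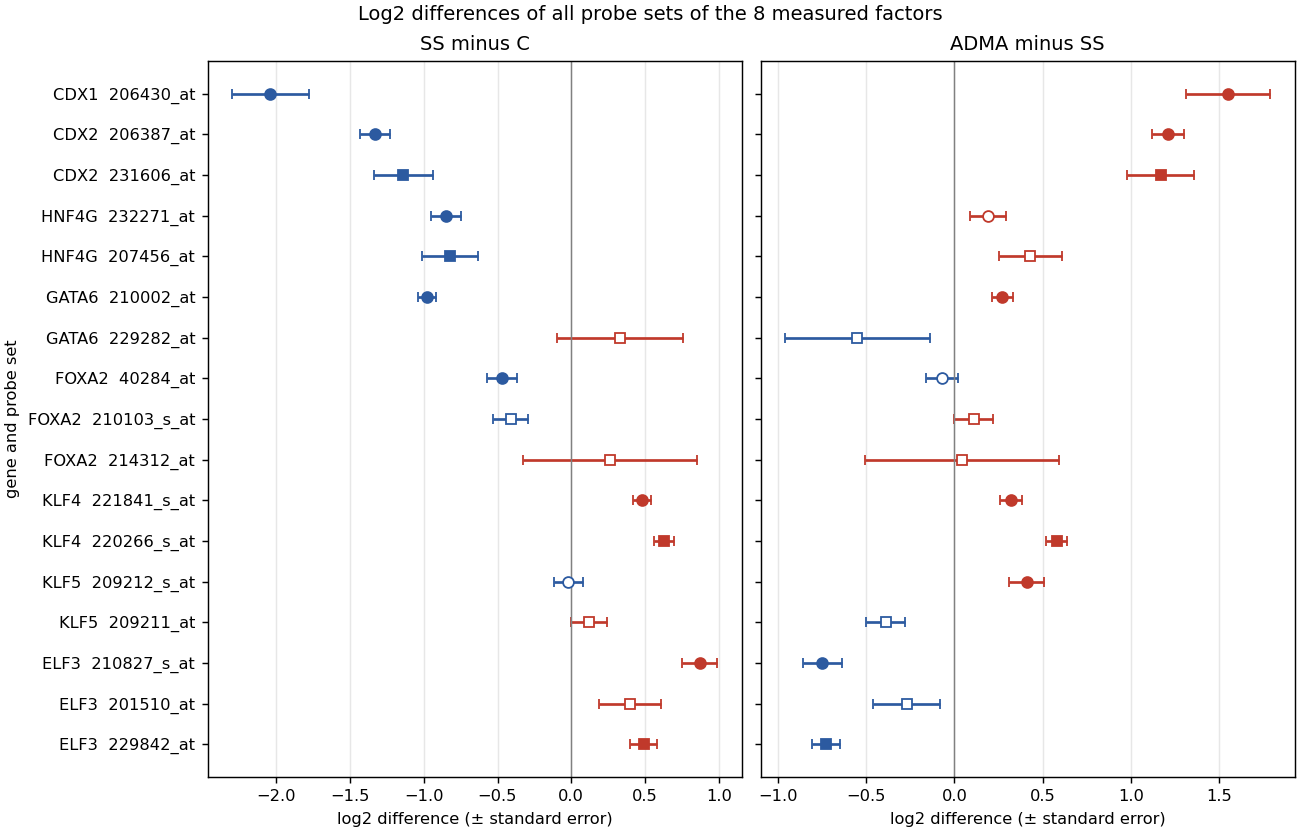
Log2 differences (horizontal axis) with standard errors for the 17 probe sets of the 8 measured factors, SS minus C on the left and ADMA minus SS on the right; circles are main probe sets, squares the others, red is above 0 and blue below, and filled symbols passed the test over all probe sets. CDX1 and CDX2 lie at -2.04 and -1.33 on the left and at 1.55 and 1.21 on the right, and the dim probe sets of GATA6 and FOXA2 have the widest errors.

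Over all 54613 probe sets that are not controls, with no filter on low signal, 27.0% passed the same test in SS minus C, 9.95% in ADMA minus SS and 24.3% in ADMA minus C. Of the 17 probe sets of these factors 11 passed in SS minus C, 9 in ADMA minus SS and 6 in ADMA minus C. Apart from the dim ones of GATA6 and FOXA2, with mean log2 signals of 6.13 and 5.2, these 17 were brighter than the filter limit. Among genes past that limit the shares called were higher, 57.6%, 29.5% and 49.8% in the 3 comparisons.

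The order of the groups therefore differed between the factors. CDX2 and CDX1 were lowest in SS, and their ADMA and C levels did not differ past the test as deposited. ELF3 was highest in SS, again with ADMA and C not separated as deposited. As deposited, GATA6 had C above ADMA above SS with each step past the test, the upper one of which alone passed after centring, and HNF4G and FOXA2 had C above the serum-free groups, which did not differ past the test. KLF4 had ADMA above SS above C as deposited. After centring neither step of its main probe set passed, but the rise of ADMA over C did.

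The genes whose profiles over the 10 arrays lay nearest to each factor were taken by the smallest root mean square difference of log2 signals centred on each gene's mean. This distance is not scaled by the size of a gene's changes, so its values cannot be compared between factors. The search covered all 12344 genes tested, of which 57.6% were called in SS minus C, and no reference distance was set. A shared control of neighbouring genes was not tested. For CDX2 they were RARRES1, a retinoid-responsive gene, at 0.11 and ASPM, a protein of the mitotic spindle, at 0.14. CDX1 had CENPA, the centromeric histone, at 0.24 and RASL12, a Ras-like GTPase, at 0.28. GATA6 had USP1 at 0.04 and TMEM203 at 0.05, HNF4G had TMX1 at 0.08 and TRUB1 at 0.09, and FOXA2 had UBA1 at 0.06 and AP4M1 at 0.08. ELF3 had the death receptor FAS and ERLEC1, both at 0.12. KLF4 had AP1S2 at 0.04 and CHMP2B at 0.06, and KLF5 had RPL8 and TMBIM6, both at 0.08.

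Other factors of intestinal cells moved in both directions, as genes as a whole did. For the counts in the lists below, 30.3% of all genes tested rose and 27.3% fell in SS minus C. In ADMA minus SS the shares were 15.7% and 13.8%. After centring on array medians, of 12344 genes 2013 rose and 5184 fell in SS minus C, and 901 rose and 2093 fell in ADMA minus SS. Of 14 factors tied to the absorptive lineage 11 had a probe set and 7 passed the filter. In SS 4 of them rose and 1 fell, with a median log2 difference of 0.40 beside 0.07 over all genes, and with ADMA against SS 1 rose and 3 fell, with a median of -0.23 beside 0.03. PRDM1, a repressor that marks the fetal intestinal epithelium, rose by 2.42 in SS (standard error 0.11, adjusted p = 9.99e-11) and fell with ADMA at -0.98 (standard error 0.10). The repressor BCL6 had 2.02 (standard error 0.11) and -1.60 (standard error 0.10), and PPARA, a receptor for fatty acids, rose by 1.17 (standard error 0.09) in SS. HES1, the Notch effector that favours absorptive over secretory fate, rose with ADMA by 0.48 (standard error 0.06). With arrays centred on their medians the SS counts were 3 risen and 2 fallen.

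Of 13 factors of secretory and stem cells 11 had a probe set and 6 passed the filter. In SS 2 rose and 2 fell, beside 30.3% and 27.3% of all genes, with a median of -0.35. With ADMA 2 rose and 1 fell, beside 15.7% and 13.8%, with a median of 0.26. MYB, a factor of crypt progenitors, had mean log2 signals of 12.15 ± 0.15 (SD, n = 3) in C, 10.16 ± 0.10 (SD, n = 3) in SS and 11.35 ± 0.09 (SD, n = 4) in ADMA. It fell in SS at -1.99 (standard error 0.08, adjusted p = 5.89e-11) and rose with ADMA by 1.18 (standard error 0.08). The Wnt pathway factor LEF1 had -1.75 (standard error 0.10) and 0.51 (standard error 0.10), a rise that did not pass with arrays centred on their medians (0.40, adjusted p = 0.0254). TCF7L2, its relative in the same pathway, rose by 1.38 (standard error 0.08) in SS, and SOX9, a factor of crypt base and Paneth cells, fell with ADMA at -0.29 (standard error 0.06).

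Of 9 partner factors of endoderm 7 had a probe set and 4 passed the filter, FOXA1, GATA4, NR5A2 and ONECUT2. None was called in SS minus C or ADMA minus SS by limma, where 1 (lower in SS) and 0 had an unadjusted p under 0.05. FOXA1, the closest relative of FOXA2, had -0.43 (standard error 0.16, adjusted p = 0.0225) in SS minus C, and NR5A2, a nuclear receptor of endoderm, had -0.41 (standard error 0.20). Both passed as falls under quantile normalization (-0.63 and -0.72) and after centring (-0.82 and -0.80). The FOXA1 difference of ADMA from SS was -0.08 (standard error 0.15), and against C it fell with ADMA at -0.52 (adjusted p = 0.00623).

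Of 12 other KLF genes 11 were tested. In SS 6 rose and 2 fell, beside 30.3% and 27.3% of all genes, with a median of 0.45. The split became 3 risen and 4 fallen with arrays centred on their medians. KLF11, a TGF-beta-responsive repressor, rose by 1.44 (standard error 0.09) in SS and fell with ADMA at -1.03 (standard error 0.09). KLF6 had 1.38 (standard error 0.05) and -0.40 (standard error 0.05), and KLF9 fell in SS at -1.15 (standard error 0.29, adjusted p = 0.00264). The mean log2 signal of KLF9 in SS was 5.89, close to the background levels of those arrays, 5.37 to 5.84. The size of its fall is therefore uncertain. With ADMA 1 rose, KLF12 at 0.41 (standard error 0.10, not called after centring), and 3 fell. KLF11 and KLF6 thus rose in SS as KLF4 did, and had the opposite sign to KLF4 with ADMA.

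Of 10 other ETS genes 9 were tested, with 3 risen and 3 fallen in SS and 1 risen and 2 fallen with ADMA. Of all genes 57.6% were called in SS minus C and 29.5% in ADMA minus SS. After centring the SS counts were 1 risen and 3 fallen. EHF, the epithelial ETS gene nearest in kind to ELF3, fell in SS at -0.65 (standard error 0.12, adjusted p = 0.000146) and rose with ADMA by 0.58 (standard error 0.11, adjusted p = 0.000574), the reverse of ELF3. ETS1 had 1.27 (standard error 0.13) and -0.80 (standard error 0.12). ETV4 fell in SS at -1.10 (standard error 0.16), and ELF1 fell with ADMA at -0.33 (standard error 0.07).

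Genes described as targets of the CDX and HNF4 factors in gut epithelium were listed too. Of 22, 11 passed the filter. Over all genes tested 30.3% rose and 27.3% fell in SS, and 15.7% and 13.8% with ADMA against SS. In SS, where CDX2, CDX1 and HNF4G fell, 5 of the 11 rose and 2 fell, with a median log2 difference of 0.06, and with ADMA against SS 7 rose and 0 fell by limma, with a median of 0.57, where 9 were higher and 1 lower at an unadjusted p under 0.05. Centring on array medians gave 4 risen and 5 fallen in SS, and 6 risen and 1 fallen with ADMA. The mucin MUC2 rose by 2.45 (standard error 0.15) in SS, the fatty acid-binding protein FABP1 by 1.47 (standard error 0.10) and the lectin LGALS4 by 1.39 (standard error 0.06). As deposited, the 2 that fell in SS were GPA33 at -0.73 (standard error 0.08) and DPP4 at -0.58 (standard error 0.12). With ADMA, FABP1 rose by 4.12 (standard error 0.09), KRT20, a keratin of differentiated cells, by 2.50 (standard error 0.10) and GPA33, a surface antigen of gut epithelium, by 1.80 (standard error 0.07).

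**Figure D4:**
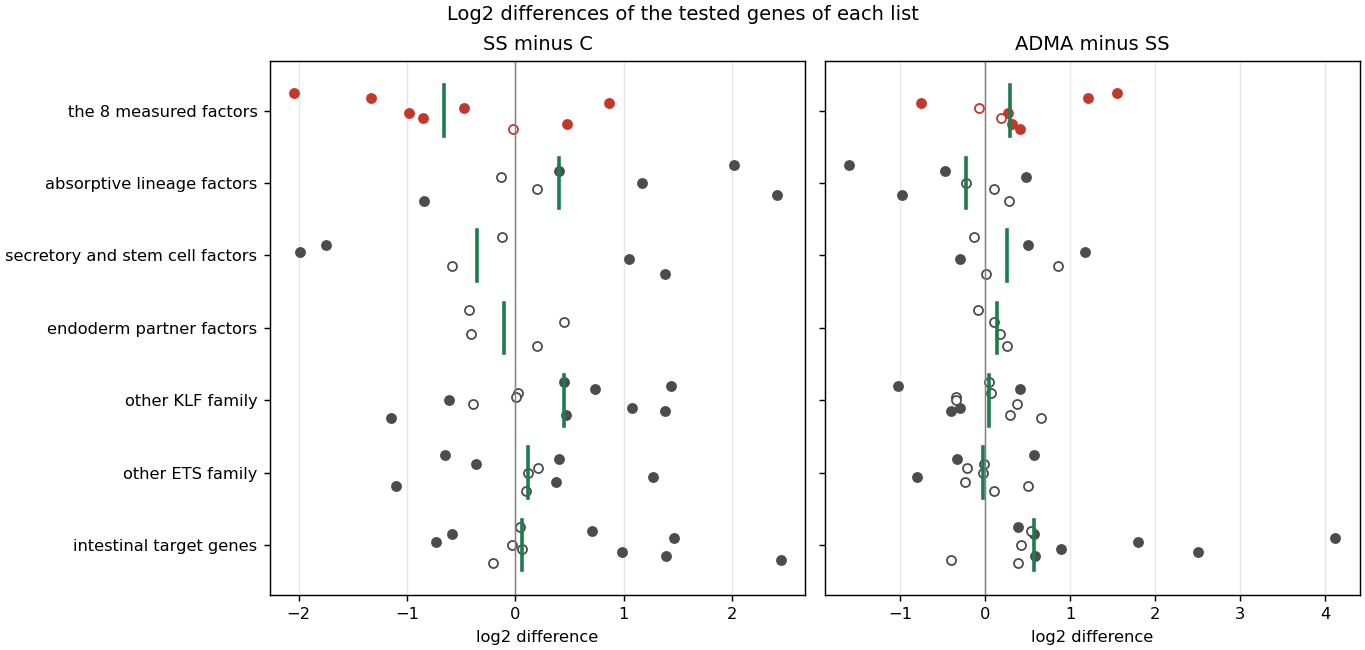
Log2 differences (horizontal axis) of the tested genes of each list, SS minus C on the left and ADMA minus SS on the right; each point is 1 gene, filled where it passed the test, with the 8 measured factors in red and the median of each list as a green bar. The medians of the 8 factors lie at -0.66 and 0.29, and those of the intestinal target genes at 0.06 and 0.57.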

How the data were processed

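The authors hybridized RNA of LoVo cells to 10 Affymetrix HG-U133 Plus 2.0 arrays and deposited MAS 5.0 intensities, 1 per probe set on a linear scale, with a trimmed mean (2% at each end) of 500.1 on every array. Here their log2 was taken with no pseudocount. Of 54675 probe sets 62 are controls, 41091 carry 1 symbol, 1801 several and 11721 none in the platform annotation. Genes whose brightest probe set had a mean signal of at least the median over probe sets, 76.2, entered limma 3.58.1 (R 4.3.3; lmFit, then eBayes with trend), a single model of the 3 groups, and p-values were adjusted by Benjamini-Hochberg over these genes. The thresholds are those the study's methods give for SAM, which was not run. A signal counted as above background where it exceeded that of 95% of 27 bacterial control probe sets on its array, a level of 35.0 to 70.2. Members, gene lists and tests were chosen with earlier results of these data known. Named list genes are the 3 called genes with the largest absolute difference in SS minus C and in ADMA minus SS, or the brightest gene where none was called. The named markers, GATA4, NR5A2, ONECUT2, DPP4 and the fall of GPA33 in SS were picked after their values were seen. The planned ratio of HNF4A over HNF4G could not be made. The limma step was tested on simulated data. Promoters are RefSeq's (GRCh38.p14). Plots used matplotlib 3.10.9 in Python 3.11.15. Alternatives were 2 scalings, filters, a pseudocount of 16, a floor at background, other probe sets, other variance models, replicate numbers as blocks and omission of single arrays. The number of arrays limits the precision. Deviations of same-numbered arrays correlated at -0.07 to 0.10. Arrays of a group correlated at 0.946 at most, and no pair was identical.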

Additional observations from a re-analysis of the deposited data

Results flagged for a closer look

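Among the 17 probe sets of the factors, 3 had 1 ADMA array set apart from the other 3. The measure was the gap to the nearest array as a share of the range of the group, by which chance marks about 1 in 20 groups. Only the ADMA group of 4 arrays was checked, and C and SS, with 3 arrays each, were not. A large share can go with a small gap in log2 signal. The main HNF4G probe set had a log2 signal of 9.65 in ADMA replicate 1 against 9.33 to 9.34 in the others (share 0.988). The dimmest ELF3 probe set had 9.20 in ADMA replicate 2 against 9.16 to 9.17 (share 0.867). The main CDX2 probe set had 9.43 in ADMA replicate 4 against 9.53 to 9.55 (share 0.830).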

How the results depend on the processing

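Over 10 settings 215 member differences kept their direction and their side of the test, 13 kept their direction but lost the call, 3 kept it and gained a call, and 6 changed sign. With 1 array left out these numbers were 231, 7, 0 and 2. Centring on array medians gave 2013 genes risen and 5184 fallen in SS minus C, 901 risen in ADMA minus SS, and 1209 risen and 6101 fallen in ADMA minus C. It gave KLF4 0.09 and KLF5 -0.41 in SS minus C, KLF4 0.20, KLF5 0.29 and GATA6 0.16 in ADMA minus SS, and CDX1 -0.99, CDX2 -0.63, KLF5 -0.12 and ELF3 -0.39 in ADMA minus C. Centring shifts all differences of a comparison alike, by -0.39, -0.12 and -0.51. It took the median difference over the genes tested to -0.32, -0.09 and -0.44. Quantile normalization gave KLF5 0.13 in SS minus C and KLF4 0.21 in ADMA minus SS. Averaging all probe sets of a gene gave KLF5 0.05, GATA6 -0.32 and FOXA2 -0.21 in SS minus C, 928 genes fallen, KLF5 0.01, GATA6 -0.14, FOXA2 0.03 and the KLF4 over KLF5 ratio 0.44 in ADMA minus SS, and KLF5 0.06, GATA6 -0.46 and FOXA2 -0.18 in ADMA minus C. Without the intensity trend KLF5 missed the test at 0.41 over SS and 0.39 over C. Single other probe sets, added after seeing the data, gave in the order SS minus C, ADMA minus SS, ADMA minus C: KLF5 0.12, -0.39 and -0.27, FOXA2 -0.41, 0.11 and -0.30 by one and 0.26, 0.04 and 0.29 by the dim one, and GATA6 0.33, -0.55 and -0.21. ELF3 gave 0.40 and -0.27 by one in the first 2 and -0.24 by the other in the last, where HNF4G gave -0.39 and CDX2 0.02. With the other KLF5 probe set the KLF4 over KLF5 ratio was 0.71 in ADMA minus SS. The cause was not tested. Leaving out 1 array gave KLF5 -0.14 to 0.11 in SS minus C, 0.28 to 0.52 in ADMA minus SS and 0.35 to 0.43 in ADMA minus C. In ADMA minus SS it gave GATA6 0.25 to 0.30, FOXA2 -0.12 to 0.01 and the KLF4 over KLF5 ratio -0.21 to 0.02. The replicate block changed no member's call (CDX1 1.36 and CDX2 1.24 in ADMA minus SS), and the numbers did not pair the arrays. Under the filter at the 75th percentile of signal CDX1 was not tested.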
